A study of Mus musculus with 6 samples.

Results

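Transcripts of 10 ion channel genes that set the membrane potential and calcium supply of smooth muscle were followed through single cells of the mouse proximal aorta. They were *Kcnj8*, *Abcc9*, *Kcna5*, *Kcnc4*, *Kcnma1*, *Kcnmb1*, *Kcnj15*, *Cacna1c*, *Cacnb2* and *Ryr2*, and they make up 10 of the 31055 features counted. The genes were chosen by name, with earlier results of these data known. The study dissociated cells from the root and ascending part of the aorta of 6 mice, all female, 16 weeks old and on a 129SVE background, after collagenase and elastase digestion and a sort for DyeCycle Violet-positive, propidium iodide-negative cells, and sequenced them with 10x 3' v3 chemistry. The labels give 4 control mice (CTL) and 2 mice with a heterozygous *Tgfbr1* missense allele (LDS, Tgfbr1M318R/+), a model of Loeys-Dietz syndrome. Replicates 1 and 2 of the controls carry *Tgfbr1*+/+; Wnt2CRE; EGFP-L10a and are described as traced for the cardiac neural crest (CNC), whereas replicates 3 and 4 are *Tgfbr1*+/+ with no reporter named. All cells lie in 1 pooled matrix, in which a barcode suffix from 1 to 6 separates the libraries. Nothing ties a suffix to a mouse, so LDS and control cells were not compared. Groups of cells were compared within libraries, and because they came from clustering of the same counts these comparisons are descriptions, given per library with the median, the range and the number of libraries that moved in 1 direction, and with no test.

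Vascular smooth muscle contracts when calcium enters through L-type channels at depolarised membrane potentials, and potassium channels oppose this by carrying the membrane to more negative voltages. ATP-sensitive (K-ATP) channels of vessels are built from the pore encoded by *Kcnj8* and the sulfonylurea receptor encoded by *Abcc9*, and open when cellular energy falls. Voltage-gated channels such as those encoded by *Kcna5* and *Kcnc4* open on depolarisation, and large-conductance (BK) channels, with the pore encoded by *Kcnma1* and the smooth muscle regulatory subunit encoded by *Kcnmb1*, open on depolarisation and calcium. *Kcnj15* encodes another inwardly rectifying potassium channel. *Cacna1c* and *Cacnb2* encode the pore and a beta subunit of the L-type channel, and *Ryr2* encodes a ryanodine receptor that releases calcium from the sarcoplasmic reticulum.

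*Kcnj8*, *Abcc9*, *Kcna5* and *Kcnj15* differed widely between groups of cells, and the bases just upstream of their starts are shown. *Kcnj8* and *Abcc9* are also neighbours in the genome. In mm10 with GENCODE M21, *Kcnj8* spans chr6:142564837-142571614 and *Abcc9* spans chr6:142587862-142702315, both on the minus strand and 16247 bases apart. *Kcna5* lies on the same chromosome and strand at chr6:126532551-126535412, and *Kcnj15* on the plus strand at chr16:95257558-95300260. The others are *Kcnc4* (chr3:107438303-107459552, minus), *Kcnma1* (chr14:23289431-24014491, minus), *Kcnmb1* (chr11:33963013-33973641, plus), *Cacna1c* (chr6:118587240-119196418, minus), *Cacnb2* (chr2:14603088-14987908, plus) and *Ryr2* (chr13:11553102-12106945, minus). The sequences are the 250 bases before each RefSeq start (GRCm38.p6), 5' to 3' on the gene's strand, less 41 bases for *Abcc9* that GENCODE places inside the gene. Capitals mark every match, on either strand, to TGGGAA, the core letters bound by the Notch partner RBPJ (TTCCCA in reverse), and to CAGAC, a SMAD-binding element (GTCTG in reverse), and no 2 matches overlapped. The windows are chr6:142571615-142571864 for *Kcnj8*, chr6:142702316-142702524 for *Abcc9*, chr6:126535556-126535805 for *Kcna5* and chr16:95257308-95257557 for *Kcnj15*.
Kcnj8: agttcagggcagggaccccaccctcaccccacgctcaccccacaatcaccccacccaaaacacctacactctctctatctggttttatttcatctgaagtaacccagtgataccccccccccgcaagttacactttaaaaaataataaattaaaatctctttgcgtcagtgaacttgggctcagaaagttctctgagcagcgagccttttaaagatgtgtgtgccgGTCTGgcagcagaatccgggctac
Abcc9: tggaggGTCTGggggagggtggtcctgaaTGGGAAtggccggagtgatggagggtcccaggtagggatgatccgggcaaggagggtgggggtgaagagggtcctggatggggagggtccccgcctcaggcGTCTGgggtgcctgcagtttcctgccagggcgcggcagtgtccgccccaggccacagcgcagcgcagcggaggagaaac
Kcna5: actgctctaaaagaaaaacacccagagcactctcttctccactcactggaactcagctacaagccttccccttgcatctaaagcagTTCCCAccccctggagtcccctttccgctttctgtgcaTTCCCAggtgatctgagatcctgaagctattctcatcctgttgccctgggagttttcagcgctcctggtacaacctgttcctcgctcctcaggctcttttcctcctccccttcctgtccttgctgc
Kcnj15: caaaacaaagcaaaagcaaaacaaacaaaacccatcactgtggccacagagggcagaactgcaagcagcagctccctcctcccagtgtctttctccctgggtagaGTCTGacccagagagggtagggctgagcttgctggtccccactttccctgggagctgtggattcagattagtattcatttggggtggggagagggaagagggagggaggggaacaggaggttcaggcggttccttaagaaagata

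Of the 32851 promoter windows of 250 bases in the same table, 42.2% held CAGAC and 21.6% held TGGGAA. Among the 13 windows of the 10 channel genes, CAGAC was present in 5 windows (of *Abcc9*, *Cacna1c*, *Kcnj15* and *Kcnj8*) and TGGGAA in 3 (of *Abcc9*, *Kcna5* and *Kcnc4*). GATAA, a core of GATA factor motifs, was present in 22.6% of all windows and the CArG box of serum response factor in 1.47%, and neither had a match in the 13 windows. All were searched on both strands. The whole 250-base window of *Abcc9*, of which 209 bases are shown, held 66.8% G and C and 12 CpG dinucleotides, against 49.2% and 6 for *Kcnj8*. These matches describe letters in short windows and not binding.

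Of 30716 barcodes, 24972 passed the study's limits on genes, UMIs and mitochondrial share, with 18218282 to 38105145 UMIs per library and a median of 5572 to 9838 UMIs per cell. Clustering separated 10269 smooth muscle-like cells (VSMC-like), 13586 fibroblast-like, 569 endothelial-like and 548 leukocyte-like cells. Libraries 2 and 6 stood apart from the others when cells were clustered without integration and made up nearly all of a smooth muscle cluster of 1119 cells, and 76 barcode sequences occurred in more than 1 library. Without these 2 libraries the median log2 ratios between the VSMC2-like and VSMC1-like subtypes given below kept their direction, at 4.14 for *Kcna5*, -1.01 for *Abcc9*, -1.82 for *Kcnj15*, -2.28 for *Kcnc4* and 0.79 for *Kcnj8*. VSMC-like cells were divided, with the channel genes kept out of the variable genes, into 8333 VSMC1-like, 1646 VSMC2-like and 273 *Rgs5*-high cells, beside 17 cells with cardiomyocyte transcripts. The subtype names rest on *Enpep* (157 counts per 1000000 summed UMIs, CPM, in VSMC2-like against 19.1 in VSMC1-like cells), *Notch3* (93.9 against 12.2), *Tes* (14.4 against 118) and *Ptprz1* (55.0 against 208). All 7 smooth muscle markers exceeded 10 CPM in all 3 subtypes, and their summed level was 62789 to 67817 CPM in VSMC1-like, 58655 to 73068 in VSMC2-like and 38498 to 51701 in *Rgs5*-high cells. CPM of a 3' library are not scaled to gene length, so levels are compared between groups of cells and not between genes.

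**Figure D1:**
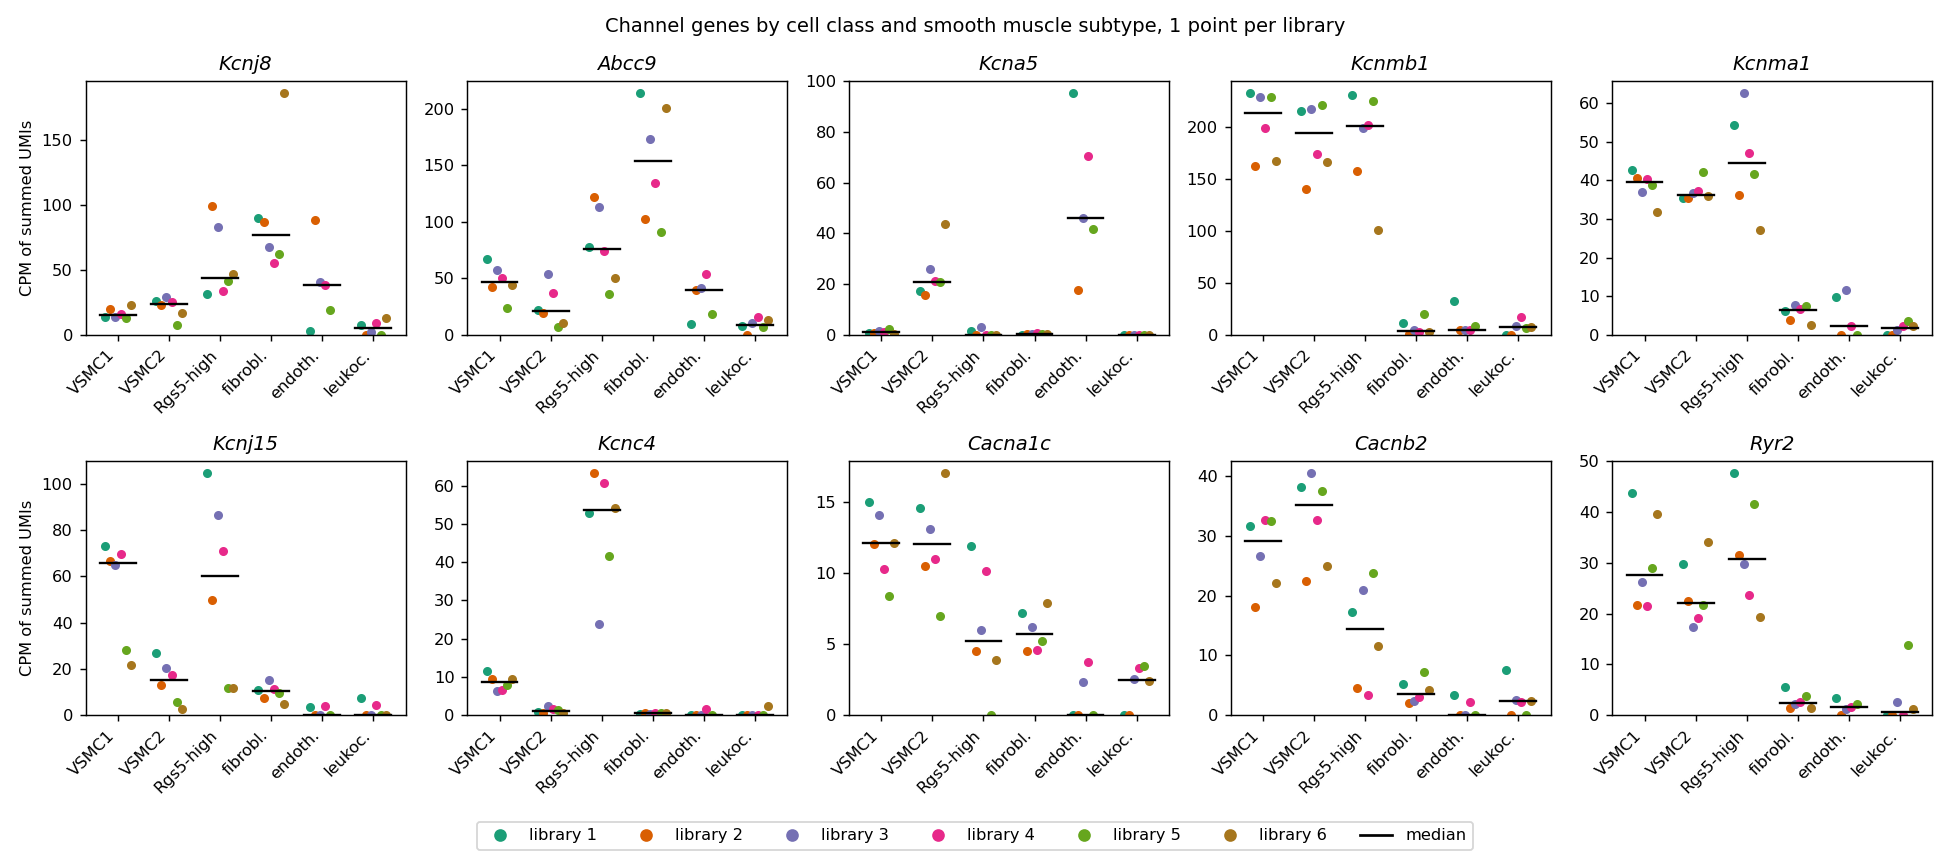
CPM of summed UMIs (y axes, linear and from 0) of each channel gene in VSMC1-like, VSMC2-like, *Rgs5*-high, fibroblast-like, endothelial-like and leukocyte-like cells, with 1 point per library of at least 20 cells and a bar at the median. *Kcnj8* and *Abcc9* are highest in fibroblast-like cells (medians of 77.1 and 154 CPM), *Kcna5* in endothelial-like cells (46.2 CPM), *Kcnc4* in *Rgs5*-high cells (53.6 CPM), and the BK, L-type and ryanodine receptor genes in smooth muscle.

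Both genes of the K-ATP channel were higher in fibroblast-like than in smooth muscle-like cells in all 6 libraries. *Kcnj8* was at 16.0, 22.3, 17.8, 18.8, 12.4 and 22.6 CPM in VSMC-like cells of libraries 1 to 6, and at 89.7, 86.7, 67.6, 55.2, 62.6 and 186 CPM in fibroblast-like cells. The values did not overlap, and the median log2 ratio of VSMC-like over fibroblast-like cells was -2.14 (range -3.04 to -1.55). *Abcc9* was at 63.5, 39.8, 58.3, 47.1, 21.5 and 37.8 CPM in VSMC-like and at 214, 102, 173, 134, 91.1 and 200 CPM in fibroblast-like cells, again without overlap, with a median log2 ratio of -1.66 (-2.40 to -1.36). The level in leukocyte-like cells, taken as the background of free RNA, was 0 to 13.1 CPM for *Kcnj8* and 0 to 15.6 CPM for *Abcc9*. Of leukocyte-like cells 17.9% were among the 5% with the highest doublet scores, and the part of doublets in this background was not tested. In the 11493 fibroblast-like cells without a *Myh11* or *Cnn1* UMI the pooled level was 82.5 CPM for *Kcnj8* and 148 CPM for *Abcc9*, near that of all fibroblast-like cells. The other 6 channel genes with at least 10 CPM on either side were higher in VSMC-like cells in all 6 libraries, which was the case for 34.6% of the 8725 genes tested, and lower in all 6 for 38.1%. A gene was counted with a mean over libraries of at least 10 CPM on 1 side. All 6 (*Kcnmb1*, *Kcnma1*, *Kcnj15*, *Cacna1c*, *Cacnb2* and *Ryr2*) passed only through smooth muscle, so their count is a description.

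Within fibroblast-like cells the pair varied together between clusters. The cluster led by *Hhip* and *F3* had medians of 120 CPM for *Kcnj8* and 271 CPM for *Abcc9*, and the cluster led by *Mmp3* had 131 and 229 CPM. The cluster led by *Has1* had 42.3 and 62.4 CPM, and the cluster led by *Coch* and *Spp1* 30.4 and 44.1 CPM. The clusters were formed with all genes, so these are descriptions of the clusters and not tests. The *Coch* and *Spp1* cluster was also the fibroblast-like cluster with the highest medians of *Kcnma1* (28.0 CPM) and *Kcnj15* (43.6 CPM), while *Kcnmb1* stayed at 3.3 CPM there.

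In smooth muscle the 2 subunit genes of the K-ATP channel did not follow the same order. *Abcc9* was at 67.2, 42.7, 57.2, 49.8, 23.9 and 43.9 CPM in VSMC1-like cells of libraries 1 to 6 and at 22.2, 19.1, 53.5, 37.3, 6.67 and 10.3 CPM in VSMC2-like cells, lower in each library although the ranges overlap, with a median log2 ratio of -1.38 (-2.07 to -0.10). *Kcnj8* was at 13.9, 20.1, 13.9, 15.9, 13.1 and 23.1 CPM in VSMC1-like and at 26.3, 22.9, 29.2, 25.3, 7.31 and 17.0 CPM in VSMC2-like cells, higher in libraries 1 to 4 and lower in 5 and 6, with a median log2 ratio of 0.42 (-0.84 to 1.07) that was -0.75 when cells were clustered without integration. Per UMI of *Kcnj8* there were 2.62 UMIs of *Abcc9* in VSMC1-like cells (median, 1.83 to 4.83 over libraries), 0.878 in VSMC2-like cells (0.607 to 1.83) and 1.92 in fibroblast-like cells (1.07 to 2.56).

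VSMC2-like cells also varied in fibroblast transcripts. Of 7 fibroblast markers all exceeded 10 CPM in VSMC2-like and 5 in VSMC1-like cells, and their summed level was 1089 to 5685 CPM in VSMC2-like cells, 1352 to 2249 CPM in VSMC1-like cells and 24346 to 30179 CPM in fibroblast-like cells. In the 595 VSMC2-like cells without a *Dcn* or *Lum* UMI, the pooled level was 11.9 CPM for *Kcnj8* and 7.5 CPM for *Abcc9*, against 14.7 and 47.6 CPM in the 4037 VSMC1-like cells without one. In these cells the difference of *Abcc9* was larger (median log2 ratio -2.91), and that of *Kcnj8* changed sign (-0.26). In the finer division, the subcluster led by *Thbs1*, *Pgam2* and *Olfr558* (1504 cells) had medians of 18.3 CPM for *Kcnj8* and 9.4 CPM for *Abcc9*, and the subcluster of 306 cells with fibroblast transcripts, of which 68.0% were among the 5% with the highest doublet scores, had 41.2 and 89.6 CPM.

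**Figure D2:**
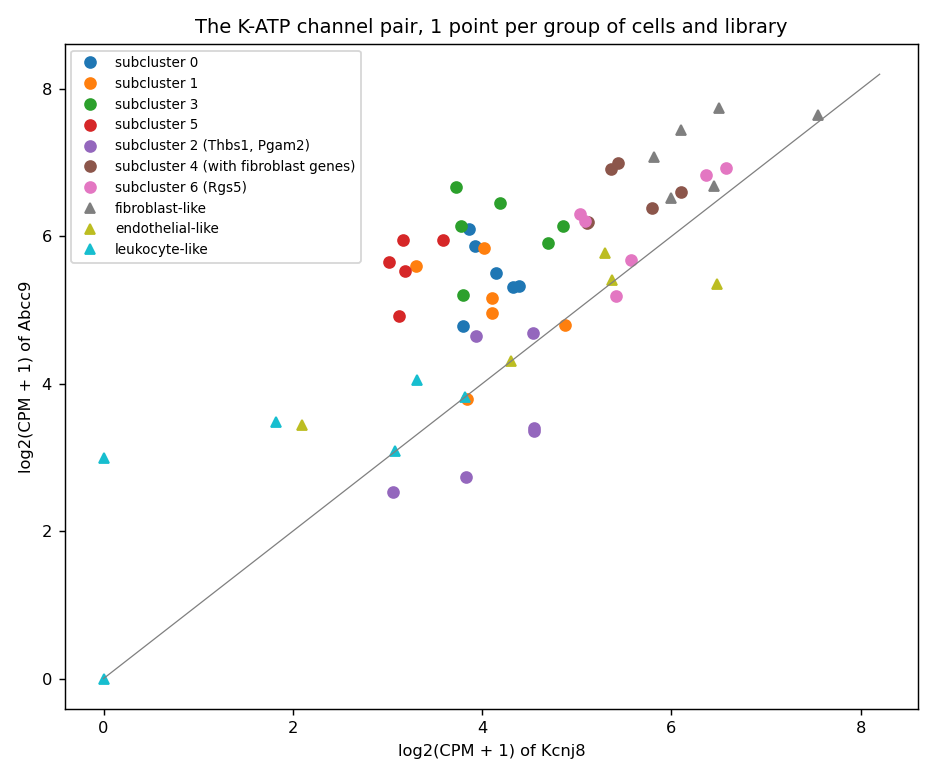
log2(CPM + 1) of *Abcc9* (y axis) against that of *Kcnj8* (x axis), with 1 point per finer smooth muscle subcluster or other class and library and a line where the 2 are equal. Fibroblast-like points lie at the upper right, the points of subclusters 0, 3 and 5 lie above the line at low *Kcnj8*, and those of subcluster 2 (led by *Thbs1* and *Pgam2*) lie on both sides of it, where 4 of 6 are below.

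*Rgs5*-high cells held more transcripts of both K-ATP genes than VSMC1-like cells in all 6 libraries. *Kcnj8* was at 31.7, 99.3, 83.4, 33.7, 41.6 and 46.5 CPM, all above the 13.1 to 23.1 CPM of VSMC1-like cells, with a median log2 ratio of 1.43 (1.01 to 2.58). *Abcc9* was at 78.0, 122, 113, 74.2, 35.7 and 50.4 CPM, overlapping with VSMC1-like cells, with a median log2 ratio of 0.57 (0.20 to 1.51). Both genes are commonly used as markers of pericytes, the contractile cells of small vessels. Of 9 other pericyte markers 6 exceeded 10 CPM in these cells and 6 in VSMC1-like cells, and *Higd1b* and *Vtn* were at 0 in *Rgs5*-high cells. Their sum was 4844 to 8440 CPM in *Rgs5*-high and 629 to 976 CPM in VSMC1-like cells. The subcluster was chosen by its *Rgs5* level, which gave 5488 of 5988 CPM pooled there and 289 of 815 CPM in VSMC1-like cells. The higher sum thus came from *Rgs5*, and the other markers together were not higher. The 7 fibroblast markers summed to 1824 to 3242 CPM in *Rgs5*-high cells. The libraries held 20 to 81 *Rgs5*-high cells, with 103 UMIs of *Kcnj8* and 165 of *Abcc9* in all.

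Among voltage-gated potassium channels, *Kcna5* was found in smooth muscle mainly in VSMC2-like cells. Its level was 17.3, 15.8, 26.1, 21.4, 20.7 and 43.8 CPM in VSMC2-like cells of libraries 1 to 6 and 0.614, 0.690, 1.40, 1.15, 2.29 and 0.289 CPM in VSMC1-like cells, and the 2 sets did not overlap. The median log2 ratio was 4.24 (3.14 to 6.76), from 303 UMIs in VSMC2-like and 82 in VSMC1-like cells. A *Kcna5* UMI was present in 13.0% of VSMC2-like cells (95% exact binomial interval 11.4 to 14.7%, counting error only, median 7000 UMIs per cell) and in 0.912% of VSMC1-like cells (0.719 to 1.14%, 7265 UMIs), while 0 of 548 leukocyte-like cells (5170 UMIs) had one, an upper limit of 0.671%. After thinning of every cell to 3000 UMIs they were 6.45% and 0.369%. *Rgs5*-high cells held 2 *Kcna5* UMIs in all, and 4 of their 6 libraries were at 0. In VSMC2-like cells without a *Dcn* or *Lum* UMI the pooled level of *Kcna5* was 34.6 CPM, and fibroblast-like cells had at most 0.526 CPM. Of the 9 pericyte markers, 8 exceeded 10 CPM in VSMC2-like cells and 6 in VSMC1-like cells, with sums of 729 to 1219 and 629 to 976 CPM, and *Higd1b* was at 16.0 against 0.0756 CPM and *Vtn* at 3.84 against 0. After removal of cells positive for *Higd1b* or *Vtn*, the median log2 ratio of *Kcna5* was 4.10, while that of *Kcnj8* was 0.02, higher in 3 of 6 libraries.

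Endothelial-like cells were the other class with *Kcna5*. These cells also held transcripts of other cells, with 7 of 9 pericyte markers over 10 CPM (a sum of 644 to 2158 CPM) and smooth muscle markers at 605 to 4160 CPM in sum. It was at 95.4, 17.7, 46.2, 70.5 and 41.6 CPM in the 5 libraries with at least 20 such cells, and 21.6% of the 569 cells had a UMI (18.3 to 25.2%, median 4692 UMIs per cell). In the 148 endothelial-like cells without a UMI of *Myh11*, *Cnn1*, *Dcn*, *Lum*, *Rgs5*, *Higd1b* or *Vtn*, *Kcna5* was at 52.4 CPM pooled, *Kcnj8* at 11.1 CPM (7 UMIs) and *Abcc9* at 0. In the 186 endothelial-like cells with a UMI of *Rgs5*, *Higd1b* or *Vtn*, *Kcna5* was at 101 CPM, *Kcnj8* at 76.7 CPM and *Abcc9* at 83.2 CPM. Endothelial-like cells thus held *Kcna5* with and without pericyte transcripts, whereas *Abcc9* was found in cells that also held other transcripts. Of endothelial-like cells 13.5% were among the 5% with the highest doublet scores, and the median of *Abcc9* was 16.6 CPM without these cells and 39.8 CPM with them.

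*Kcnc4*, which encodes a fast voltage-gated channel, was, among smooth muscle subtypes, highest in *Rgs5*-high and lowest in VSMC2-like cells. It was at 52.9, 63.2, 23.8, 60.7, 41.6 and 54.2 CPM in *Rgs5*-high cells, at 6.29 to 11.4 CPM in VSMC1-like cells and at 0.478 to 2.49 CPM in VSMC2-like cells, and none of these ranges overlap. The median log2 ratio of *Rgs5*-high over VSMC1-like cells was 2.45 (1.91 to 3.19), and in VSMC2-like relative to VSMC1-like cells it was -3.16 (-4.08 to -1.31) with 16 UMIs in VSMC2-like cells. The latter was below 0 in each library kept under each alternative, but its size was -6.56 with clustering of log-normalized counts, -4.50 without the 5% of cells with the highest doublet scores, -5.12 without the subcluster with fibroblast transcripts and -5.26 in cells without a *Dcn* or *Lum* UMI. Of *Rgs5*-high cells 25.6% had a *Kcnc4* UMI (20.6 to 31.3%, median 6648 UMIs per cell), against 5.81% of VSMC1-like, 0.608% of VSMC2-like and 0.182% of leukocyte-like cells. Fibroblast-like cells held 0.238 to 0.590 CPM. The trait was not confined to the 273 *Rgs5*-high cells. In the clustering of all cells, the VSMC-like cluster led by *Rgs5*, *Foxf1* and *Ncam1* held 910 cells, some of them thus outside the *Rgs5*-high group. It had 42.1, 28.1, 16.4, 28.0, 20.2 and 40.4 CPM of *Kcnc4* in libraries 1 to 6, and 25.4 to 47.8 CPM of *Kcnj8*.

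The BK channel genes were present in all 3 subtypes, in overlapping ranges. *Kcnmb1* was at 233, 162, 230, 200, 229 and 168 CPM in VSMC1-like cells, at 216, 141, 218, 174, 222 and 167 CPM in VSMC2-like cells and at 231, 158, 200, 202, 226 and 101 CPM in *Rgs5*-high cells. It was lower in VSMC2-like than in VSMC1-like cells in all 6 libraries, but by a median of -0.09 on the log2 scale (-0.20 to -0.01), near the -0.06 of all genes tested, and by 0.0045 in the other direction in cells without a *Dcn* or *Lum* UMI. *Kcnma1* was at 31.8 to 42.7 CPM in VSMC1-like cells and 35.3 to 42.3 CPM in VSMC2-like cells, with ratios in both directions (median log2 ratio -0.07), and at 54.2, 36.1, 62.6, 47.2, 41.6 and 27.1 CPM in *Rgs5*-high cells, higher than in VSMC1-like cells in 4 of 6 libraries (median log2 ratio 0.16, -0.23 to 0.75). Smooth muscle markers summed to 1338 to 5876 CPM in fibroblast-like cells. Against these cells, *Kcnmb1* differed more (median log2 ratio 5.92, 3.49 to 8.00) than *Kcnma1* (2.66, 2.30 to 3.68). The *Kcnmb1* level of 0.582 to 20.2 CPM in fibroblast-like cells was near the 0 to 16.7 CPM of leukocyte-like cells, and was 1.15 CPM pooled in fibroblast-like cells without a *Myh11* or *Cnn1* UMI, whereas *Kcnma1* was at 5.38 CPM there.

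*Kcnj15* was lower in VSMC2-like than in VSMC1-like cells in every library and also differed widely between libraries. It was at 73.2, 66.7, 64.8, 69.7, 28.1 and 21.6 CPM in VSMC1-like cells of libraries 1 to 6, so that libraries 5 and 6 lay below all others. The same 2 libraries were lowest in VSMC2-like cells (27.0, 12.9, 20.5, 17.5, 5.72 and 2.43 CPM) and in *Rgs5*-high cells (104, 49.7, 86.4, 70.8, 11.9 and 11.6 CPM). Within libraries it was lower in VSMC2-like cells by a median log2 ratio of -2.14 (-3.09 to -1.44), which was -4.51 in cells without a *Dcn* or *Lum* UMI (10 UMIs in VSMC2-like cells) and -1.53 with all genes kept in the clustering. In *Rgs5*-high cells *Kcnj15* did not move in 1 direction (median log2 ratio to VSMC1-like cells -0.20, -1.24 to 0.51). In the first clustering, which used all genes, the VSMC-like cluster led by MHC class II genes (352 cells) had a median of 82.6 CPM over libraries 1 to 5, with 3 cells in library 6, and the cluster led by *Pgam2* and *Pln* a median of 5.1 CPM over all 6. Genotype, reporter and any difference in preparation cannot be told apart for libraries 5 and 6.

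**Figure D3:**
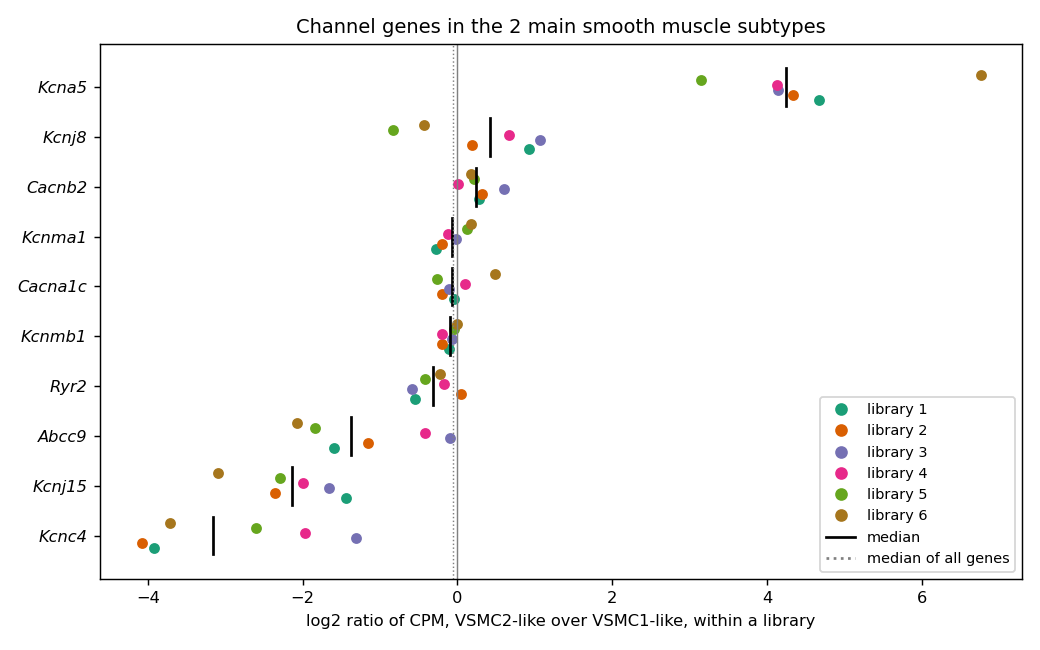
log2 ratio of CPM in VSMC2-like over VSMC1-like cells (x axis) for each channel gene (y axis), with 1 point per library, a solid line at 0 and a dotted line at the median of all genes tested. *Kcna5* lies above 3 in each library, *Kcnj15* and *Kcnc4* lie below -1 in each, *Abcc9* is below 0 in each, and the BK, L-type and ryanodine receptor genes lie between -0.58 and 0.60.

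L-type calcium channel transcripts were found in all smooth muscle subtypes. *Cacna1c* was at 15, 12.1, 14.1, 10.3, 8.39 and 12.1 CPM in VSMC1-like cells and at 14.6, 10.5, 13.1, 11, 6.99 and 17.0 CPM in VSMC2-like cells, which overlap (median log2 ratio -0.07, -0.26 to 0.49). *Cacnb2* was at 31.6, 18.1, 26.7, 32.6, 32.4 and 22.1 CPM in VSMC1-like and at 38.1, 22.5, 40.4, 32.7, 37.5 and 24.9 CPM in VSMC2-like cells, higher in each library by a median log2 ratio of 0.24 (0.00 to 0.60). In *Rgs5*-high cells both were lower than in VSMC1-like cells in all 6 libraries: *Cacnb2* was at 17.2, 4.51, 20.9, 3.37, 23.8 and 11.6 CPM (29 UMIs in all) and *Cacna1c* at 11.9, 4.51, 5.96, 10.1, 0 and 3.87 CPM (16 UMIs). The log2 ratio of *Cacna1c* was -0.03 in library 4, and without the cells with the highest doublet scores it was lower in 4 of the 5 libraries that kept at least 20 *Rgs5*-high cells, whereas *Cacnb2* was lower in 5 of 5. Fibroblast-like cells held 4.48 to 7.91 CPM of *Cacna1c*, above the 0 to 3.47 CPM of leukocyte-like cells in every library, and 2.10 to 7.16 CPM of *Cacnb2*, which overlaps with the 0 to 7.47 CPM of leukocyte-like cells.

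*Ryr2* was at 43.7, 21.7, 26.2, 21.6, 28.9 and 39.7 CPM in VSMC1-like cells and at 29.8, 22.5, 17.4, 19.1, 21.6 and 34 CPM in VSMC2-like cells, lower in 5 of 6 libraries by a median log2 ratio of -0.32 (-0.58 to 0.05). *Rgs5*-high cells were at 19.4 to 47.6 CPM and overlapped with both. Because *Ryr2*, *Cacna1c* and *Cacnb2* are also cardiac genes, the 17 cells with cardiomyocyte transcripts are given apart: their pooled levels were 159, 36.1 and 79.5 CPM. In VSMC2-like cells the summed cardiomyocyte markers reached 8.90 to 37.3 CPM, against 2.23 to 12.7 CPM in VSMC1-like cells and 4.37 to 23.6 CPM in fibroblast-like cells.

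A filter of a mean over libraries of at least 10 CPM in VSMC-like cells was passed by 8 of the 10 channel genes, and not by *Kcna5* and *Kcnc4*. Of these 8, 1 was higher in VSMC2-like cells in all 6 libraries (*Cacnb2*, with a ratio of 0.00 in library 4 and none left with TMM factors), beside 12.1% of the 7687 genes tested, and 3 were lower (*Abcc9*, *Kcnj15* and *Kcnmb1*), beside 21.8%. In *Rgs5*-high against VSMC1-like cells, where the filter was a mean of at least 10 CPM in either group, 9 of the 10 passed, of which 3 were higher in all 6 libraries (*Kcnj8*, *Abcc9* and *Kcnc4*) and 2 lower (*Cacna1c* and *Cacnb2*), beside 10.0% and 5.49% of 8304 genes. *Kcnc4* and *Cacna1c* passed this filter only through the side on which they were higher.

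**Figure D4:**
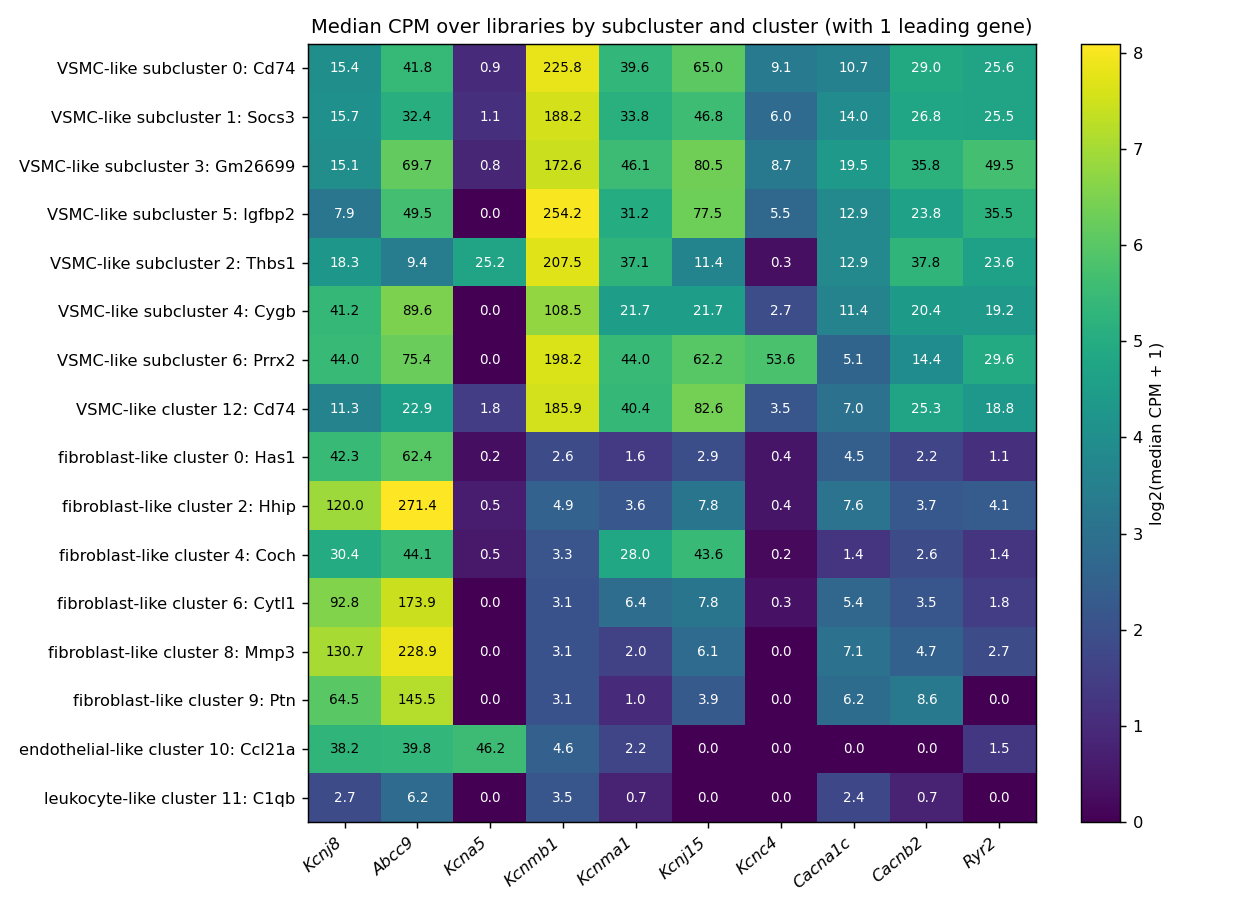
Median CPM over libraries of each channel gene (columns) in the finer subclusters of VSMC-like cells and in the clusters of other classes (rows, each with 1 of its leading genes), on a colour scale of log2(CPM + 1). *Kcna5* is seen in the *Thbs1* and *Pgam2* subcluster (25.2 CPM) and in endothelial-like cells, and *Kcnc4* in the *Rgs5*-high subcluster (53.6 CPM).

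The finer subclusters of smooth muscle separated the channel genes in the same places. In the *Thbs1*, *Pgam2* and *Olfr558* subcluster, the medians were 25.2 CPM for *Kcna5*, 37.8 for *Cacnb2*, 11.4 for *Kcnj15* and 0.267 for *Kcnc4*. In the largest subcluster (4814 cells, led by *Cd74*, *Psd* and *Des*) they were 0.940, 29.0, 65.0 and 9.12 CPM. A subcluster of 1416 cells led by Gm26699, Myo9b and Tnxb had a *Malat1* level of 65978 CPM and a median of 4252.5 UMIs per cell. Among the finer subclusters it had the highest medians of *Cacna1c* (19.5 CPM), *Ryr2* (49.5 CPM), *Kcnj15* (80.5 CPM) and *Kcnma1* (46.1 CPM). The 1649 cells led by the stress genes *Socs3*, *Mt1* and *Atf3* had medians of 26.8 CPM for *Cacnb2* and 25.5 CPM for *Ryr2* (29.0 and 25.6 CPM in the largest subcluster), and lower medians than the largest subcluster for *Kcnj15* (46.8 CPM), *Abcc9* (32.4 against 41.8 CPM) and *Kcnc4* (6.04 CPM). A list of dissociation genes summed to 35153 CPM pooled in these cells and 9952 CPM in the largest subcluster. The same sum was 24006 CPM in VSMC2-like and 15254 CPM in VSMC1-like cells. The part of dissociation in the differences between these 2 subtypes was not tested.

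An *Abcc9* UMI was present in a larger share of the cells with a *Kcnj8* UMI than of those without. In fibroblast-like cells the shares were 68.0% and 35.4%, and in VSMC-like cells they were 37.0% and 21.9%. Cells with a *Kcnj8* UMI were deeper (a median of 7089.5 against 5762 UMIs in fibroblast-like and 8820 against 7053.5 in VSMC-like cells). After thinning of every cell to 3000 UMIs they were 47.5% and 26.0% in fibroblast-like cells, with the same direction in 6 of 6 libraries, and 19.4% and 10.9% in VSMC-like cells, also in 6 of 6. Within VSMC1-like cells they were 16.8% and 12.1% (higher in 4 of 6 libraries), and within VSMC2-like cells 28.6% and 3.84% (5 of 6), the latter from 70 cells with a *Kcnj8* UMI. Of VSMC2-like cells 13.2% were among the 5% with the highest doublet scores, and without these the shares were 25.0% and 1.82%, higher in 4 of 6 libraries. In VSMC2-like cells without a *Dcn* or *Lum* UMI they were 25.0% and 1.28%, but this was 4 of 16 cells with a *Kcnj8* UMI, all 4 from library 3. In VSMC1-like cells without one they were 15.8% and 12.9%. There the differences were -14.8, -12.7, -1.34, -8.78, 8.03 and 28.9 percentage points in libraries 1 to 6, so most libraries went the other way. For comparison, an *Abcc9* UMI was present in 2.45% of thinned leukocyte-like cells. The subunits of the BK channel showed a smaller difference, since 48.3% of thinned VSMC-like cells with a *Kcnma1* UMI held *Kcnmb1* and 44.6% of those without, and those of the L-type channel hardly any, with *Cacnb2* in 8.81% of cells with and 8.39% of cells without a *Cacna1c* UMI.

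**Figure D5:**
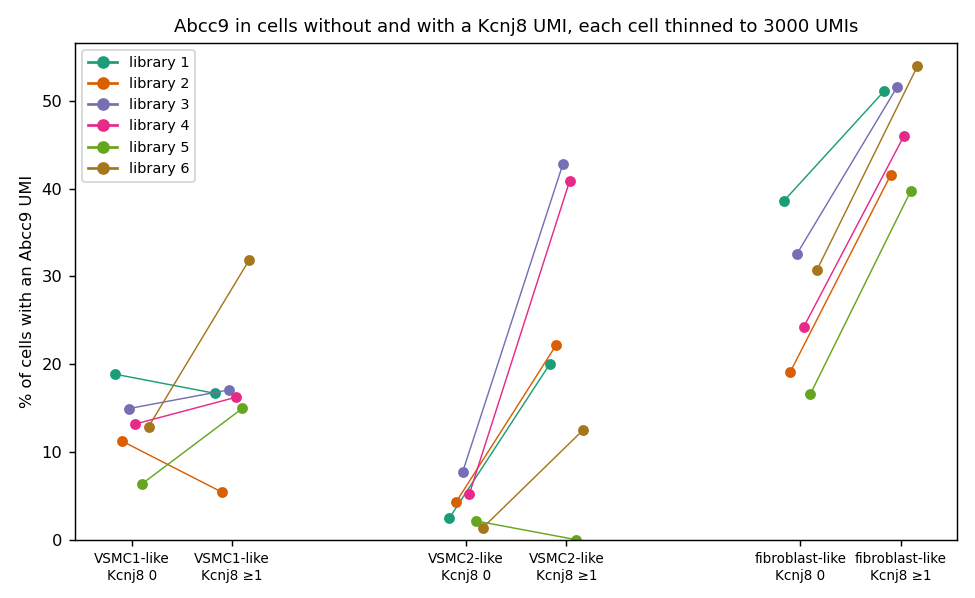
Percentage of cells with an *Abcc9* UMI (y axis, from 0) among cells without and with a *Kcnj8* UMI, in 3 groups of cells with each cell thinned to 3000 UMIs, with 1 line per library. In fibroblast-like cells the share is higher with a *Kcnj8* UMI in each library, and in VSMC1-like cells the lines go both ways.

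Other channel genes were read from 3 lists of genes named by family. Of 93 potassium channel genes outside the 10, 82 had a UMI and 6 passed the filter in smooth muscle subtypes, of which 1 was higher and 3 were lower in the VSMC2-like group of all 6 libraries (median log2 ratio of the 6, -0.25), beside 12.1% and 21.8% of all genes tested and a median of -0.06. *Kcnk3*, a background (leak) potassium channel, had 14.3 CPM in the VSMC1-like and 34.1 CPM in the VSMC2-like group (median log2 ratio 1.25). *Kcne4*, a regulatory subunit, was at 20.5 and 17.6 CPM (-0.05), and *Kcnip4*, a cytosolic partner of voltage-gated channels, at 17.3 and 2.20 CPM.

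Of 53 genes of calcium entry 12 passed the filter, 3 higher and 5 lower in all 6 libraries (25.0% and 41.7%, beside 12.1% and 21.8% of all genes tested), with a median log2 ratio of -0.20. *Cacna1d*, the pore of another L-type channel, had 28.5 CPM in the VSMC1-like and 10.2 CPM in the VSMC2-like group (-1.51), in contrast to *Cacna1c*. *Stim1*, a calcium sensor of the reticulum, was higher (0.66) and its relative *Stim2* lower (-0.53), and *Trpc1*, a cation channel, was higher (0.48). Of 34 genes of calcium handling in the sarcoplasmic reticulum, 16 passed, 5 higher and 5 lower (31.2% each, beside the same 12.1% and 21.8%), with a median of -0.04. *Pln*, which encodes phospholamban, the inhibitor of the reticulum's calcium pump, had 28.7 CPM in the VSMC1-like and 298 CPM in the VSMC2-like group (3.34). *Atp2b1*, a calcium pump of the plasma membrane, was higher (0.67), and *Asph* (-0.54) and *Casq1*, a calcium-binding protein of the reticulum (17.3 and 4.90 CPM, -1.80), were lower.

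The genes with levels most like each channel gene were found over 58 sums of cells, each a subtype or class in 1 library, among 10868 genes, by Pearson's r of log2(CPM + 1). The sums share libraries, and the correlations describe these groups of cells. *Kcnmb1* was most like *Cnn1* (0.98), *Mylk* (0.96) and *Dstn* (0.96), which act in contraction and actin turnover, with its partner *Kcnma1* at 0.92, and *Kcnma1* most like *Lpp* (0.96), *Pnck* (0.95) and *Fblim1* (0.95). *Ryr2* was most like *Susd5* (0.95), *Ppp1r12b* (0.95) and *Lpp* (0.94), *Cacnb2* like *Plekhg3* (0.91), *Adcy5* (0.90) and *Prkaa2* (0.90), and *Cacna1c* like *Sort1* (0.87), *Grb14* (0.83) and *Vldlr* (0.82). *Abcc9* was most like *Fbn1* (0.88), *Ntn1* (0.86) and *Col6a1* (0.86), and *Kcnj8* like *Abi3bp* (0.85), *Kazald1* (0.80) and *Nbl1* (0.79), with 0.74 between the pair itself. *Kcna5* was most like *Higd1b* (0.88), *Pcdh1* (0.85) and *Gja4* (0.84), *Kcnj15* like *Bmpr1b* (0.92), *Smim14* (0.89) and *Adk* (0.88), and *Kcnc4* like *Pgr* (0.87), *AC154509.1* (0.86) and *Tmem132a* (0.84).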

How the data were processed

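The UMI counts per gene and cell are raw counts that the authors made with Cell Ranger 6 against mm10, per the labels, and deposited as 1 matrix whose header names version 4.0.0 of its writer. The authors had pooled 6 libraries, told apart by a barcode suffix. Cells with 1000 to 5000 genes, 1500 to 25000 UMIs and under 20% mitochondrial UMIs were kept, as in the study. Each library was normalized with SCTransform (Seurat 5.3.0, sctransform 0.4.2, R 4.3.3) and integrated by RPCA with 3000 variable genes and 30 components, and cells were clustered at a resolution of 0.25. A cluster was named from at least 3 detected markers of a fixed list. VSMC-like cells were integrated again with 267 genes kept out, channel genes among them (86 of these were variable, leaving 2914), and clustered at 0.05 for the subtypes and 0.15 for the finer subclusters. Doublets were scored with scrublet (scanpy 1.11.5) and kept in the main values.

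UMIs were summed per group of cells and library where it held at least 20 cells, scaled to counts per 1000000 (CPM), and compared within libraries as log2 ratios with a prior of 0.5 UMIs. No library could be tied to a mouse, so genotypes were not compared. Groups of cells were compared within the 6 libraries without a test, since they came from clustering of the same counts, and a direction in all 6 was counted instead and read beside its share among all genes past a mean of 10 CPM. Libraries are separate sorted samples of different genotypes. Exact Clopper-Pearson intervals of 95% cover counting error only. The ratio script was tested on simulated counts. The channel genes and the lists were chosen with earlier results of these data known. Named beyond them are, from each list, the 2 genes with the highest and the 2 with the lowest VSMC2-like over VSMC1-like ratio among those that reach 10 CPM in VSMC-like cells, and for each channel gene the 3 genes with the most similar levels. Of these, 1 result is not reported here. Alternatives were clustering of log-normalized counts without integration, all genes kept in the clustering, a doublet or mitochondrial limit (under 10%), edgeR 4.0.16 TMM factors, a prior of 2 UMIs, no minimum CPM, thinning to 3000 UMIs, leaving out each library, and, chosen after seeing the data, leaving out libraries 2 and 6, single clusters or cells with other cell types' transcripts.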

Additional observations from a re-analysis of the deposited data

Results flagged for a closer look

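Library values were examined as sets, 1 per channel gene and group of cells. A further set per channel gene held its log2 ratios of VSMC2-like over VSMC1-like cells. Of the 70 sets, 5 held a library whose gap to its neighbour was large for the range of the set (Dixon's 95% limit). Chance alone flags about 1 in 20 sets, and the libraries are not replicates of 1 condition. *Kcnj8* in fibroblast-like cells was at 186 CPM in library 6, with the next at 89.7 CPM. *Kcna5* in VSMC2-like cells was at 43.8 CPM in library 6, with the next at 26.1 CPM. *Kcnma1* in VSMC2-like cells was at 42.3 CPM in library 5, with the next at 37.3 CPM. In endothelial-like cells, *Kcnmb1* was at 32.9 CPM in library 1, with the next at 8.33 CPM, and *Kcnc4* was at 1.5 CPM in library 4 and at 0 in the others, from 2 UMIs.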

How the results depend on the processing

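The ratios between groups of cells were taken within libraries, so the groups were paired by library. No paired test was run, because the groups came from clustering of the same counts. The replicate numbers of the labels cannot be tied to libraries, so mice were not compared. Of 190 log2 ratios of VSMC2-like over VSMC1-like cells under an alternative, 174 moved by less than 1 SD between libraries, and 11 had the other sign: 4 of *Cacna1c* (0.01 to 0.23), 4 of *Kcnma1* (0.04 to 0.13), 2 of *Kcnj8* (-0.75 and -0.26) and 1 of *Kcnmb1*. Of these genes only *Kcnmb1* had moved in 1 direction in all 6 libraries, and its ratio, -0.09, was 0.0045 in cells without a *Dcn* or *Lum* UMI. The ratio of *Abcc9* was -2.64 with log-normalized clustering, -2.53 without the 5% of cells with the highest doublet scores and -2.91 without cells with a *Dcn* or *Lum* UMI, and that of *Kcnj8* was -0.75, with no library higher, under log-normalized clustering. The 1 channel gene higher in VSMC2-like cells in all libraries, *Cacnb2*, became 0 with TMM factors, 0 without the cluster led by MHC class II genes and 0 without cells with a *Dcn* or *Lum* UMI, and the count was 2 with no minimum CPM. With no minimum CPM, 3 potassium channel genes of the list were higher and 8 lower (main 1 and 3), and 7 calcium entry genes were higher and 9 lower (main 3 and 5), while 2 potassium channel genes were higher with log-normalized clustering. The count lower in *Rgs5*-high than in VSMC1-like cells was 1 without the cells with the highest doublet scores, where *Cacna1c* was lost (main 2). The count higher was 5 without libraries 2 and 6 (main 3), where 1 direction in the 4 libraries left was enough. The share of all genes under that weaker rule was not computed, so the 2 counts are not comparable. The difference of shares in the co-detection of *Kcnj8* and *Abcc9*, 15.1 percentage points in VSMC-like and 32.6 in fibroblast-like cells, was 8.54 and 21.5 points with each cell thinned to 3000 UMIs, and the thinned difference in VSMC2-like cells, 24.7 points, was 23.7 without cells with a *Dcn* or *Lum* UMI and 23.2 without the highest doublet scores. In VSMC1-like cells the thinned difference, 4.71 points, was 2.85 without cells with a *Dcn* or *Lum* UMI. The cause of these changes was not tested. Without each library in turn, 1 channel gene was higher and 3 to 4 were lower in VSMC2-like cells. Depth limits *Kcnc4* in VSMC2-like cells (16 UMIs) and *Kcna5* and *Cacna1c* in *Rgs5*-high cells (2 and 16 UMIs).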

Other observations

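Cells with a UMI of *Gata4*, a transcription factor central to the study, held less *Abcc9* than cells without one in each of the 6 libraries, in smooth muscle as well as in fibroblast-like cells. In VSMC1-like cells (757 with and 7576 without a *Gata4* UMI) the medians of *Abcc9* were 17.5 and 50.4 CPM, a median log2 ratio of -1.53 (-2.30 to -0.99). In fibroblast-like cells (1873 with and 11713 without) they were 55.0 and 171 CPM, a ratio of -1.44 (-2.02 to -1.14), and *Kcnj8* was at 42.7 and 85.0 CPM (-0.98, lower in 6 of 6). The median over all genes past the filter was -0.03 in VSMC1-like and 0.04 in fibroblast-like cells. In fibroblast-like cells *Cacna1c* (3.21 and 5.95 CPM, -0.74) and *Ryr2* (1.49 and 2.48 CPM, -0.97) were also lower in 6 of 6 libraries. Cells with a *Gata4* UMI held only 50 UMIs of *Cacna1c* and 22 of *Ryr2*. Both *Ryr2* medians lay within the 0 to 13.9 CPM of leukocyte-like cells, taken as the background of free RNA. The lower *Cacna1c* median lay within their 0 to 3.47 CPM. The part of free RNA in the differences of *Cacna1c* and *Ryr2* was not tested. The share of all genes with 1 direction in all 6 libraries was not computed for this split. *Kcnj15* was higher with a *Gata4* UMI in fibroblast-like cells in 6 of 6 libraries (13.5 and 9.28 CPM, 0.69). Cells with a *Gata4* UMI were deeper (medians of 8002 and 7194 UMIs in VSMC1-like, 7495 and 5928 in fibroblast-like cells), and the part of depth and of the clusters in these differences was not tested.

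In a split of VSMC-like cells by 4 region markers in place of clusters, 1391 cells with an *Enpep* or *Notch3* UMI and no *Tes* or *Ptprz1* UMI were set against 5192 cells with the reverse. *Kcna5* was at 22.0 and 0.60 CPM, *Abcc9* at 19.5 and 49.1 CPM, *Kcnj15* at 13.9 and 65.9 CPM and *Kcnc4* at 0.67 and 11.1 CPM, each in the same direction in 6 of 6 libraries. *Kcnmb1* was also lower in 6 of 6 (median log2 ratio -0.17). *Kcnj8* and *Cacnb2* were higher in 5 libraries, *Cacna1c* in 4, *Ryr2* in 3 and *Kcnma1* in 2. The groups had medians of 6438 and 7841.5 UMIs per cell. The same 4 markers named the subtypes, so the split is not separate from them. The share of all genes with 1 direction was not computed for it.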
